A study of Mus musculus with 8 samples.

Results

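CTCF and the cohesin complex are encoded and controlled by a small set of genes, and 10 of them were examined here for binding of nuclear FGFR1, RXR and Nur77 and for incorporation of the histone variant H3.3. The genes were chosen by name, with no measured value, but earlier results of these data were known at the time. They were Ctcf, the ring subunits Smc1a, Smc3 and Rad21, and the accessory subunits Stag1 and Stag2. The others were the loader Nipbl and the release and maintenance factors Wapl, Pds5a and Pds5b. All 10 were found among the 21938 protein-coding genes of the GENCODE M21 annotation on the autosomes and sex chromosomes. CTCF is a zinc finger protein that binds a long DNA motif and marks insulators and the borders of chromatin domains. Cohesin is a ring that holds sister chromatids together and extrudes loops of chromatin until it is halted, most often at CTCF. NIPBL loads and drives the ring, WAPL takes it off DNA, and the PDS5 proteins bind the ring and take part both in its release and in its protection.

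The data were 8 libraries of chromatin immunoprecipitation with sequencing (ChIP-seq) from E14Tg2a, a line of mouse embryonic stem cells used here between passages 37 and 40. One state was pluripotent (ESCs, with leukemia inhibitory factor, LIF). The other was the neuronal lineage (NCs, without LIF, after 48 h in 1 µM retinoic acid, RA). FGFR1 is a cell surface receptor of which a share enters the nucleus, RXR and Nur77 are nuclear receptors, and H3.3 is a histone variant deposited outside replication. FGFR1, RXR and Nur77 had 1 library each in ESCs, RXR, Nur77 and H3.3 had 1 each in NCs, and FGFR1 in NCs had 2, of which replicate 2 was titled as a second experiment. Chromatin was pooled over several plates, and all cells came from 1 line. Peak lists were analysed and no RNA levels, so the pluripotent or neuronal state of the cells was not checked against marker genes here.

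A peak was assigned to a gene when it covered at least 20 bp of the promoter window, from 5000 bp upstream to 1000 bp downstream of any of the gene's annotated starts. Peaks in the rest of the gene were gene-body peaks. Distances are from the representative start of each gene, negative upstream and positive in the direction of transcription. Only FGFR1 in NCs had replicates, so no difference between conditions was tested and each value below is that of 1 library.

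The libraries differed in ways that bear on every count. They held 10634 to 46137 peaks, and the estimated background was 1.27 to 7.09 fragments per kb. FGFR1 in NCs stood apart from its own replicate: replicate 1 had 46137 peaks of a median 89 bp and replicate 2 had 14082 peaks of a median 311 bp, with a median of 10 and 27 fragments at the summit. Runs of at least 20 bp of alternating purines and pyrimidines lay at 1.26% of the peaks of that replicate 2 and at 21.1% to 51.7% of the peaks of the other libraries. None of the promoter-window peaks of the 10 genes lay on such a run.

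Short sequences at the peaks of these genes show what the binding data refer to. They are reference sequence of GRCm38.p6 (the coordinates of mm10) from RefSeq, 5′ to 3′ on the strand of the gene, and E14Tg2a may differ from it. Ctcf, Smc3 and Rad21 are shown because each carries the YY1 word ATGGCGGC, in capitals and read here as its reverse complement, within the 300 bp around its start. Its first base lay at -34 in Ctcf, -5 in Smc3 and +28 in Rad21. Each word lay inside a peak of 1 library, FGFR1 NC replicate 1 at Ctcf and FGFR1 NC replicate 2 at Smc3 and Rad21. The summits of the latter peaks were at -384 in Smc3 and -148 in Rad21. The lines span chr8:105636534-105636563 (plus strand), chr19:53600382-53600411 (plus strand) and chr15:51991701-51991730 (minus strand).
Ctcf: tgcaccgcgccGCCGCCATtttgtgtccga
Smc3: cctccgcggccGCCGCCATtttgtttggcc
Rad21: gcgccgtaacgGCCGCCATcttgtttgttt

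Stag1 is shown because a CTCF motif lay in its promoter under FGFR1 peaks. The capitals mark the 12 letters of the CTCF word, first base at +125, and the overlapping SP1 word GGGCGG, first base at +133, in an untranslated exon at chr9:100643565-100643594 (plus strand).
Stag1: cagcgcggCCAGCAGAGGGCGGtcgggacc

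The promoter peak of Smc3 in FGFR1 replicate 2 was the strongest peak of the set, and the 101 bp around its summit, chr19:53599964-53600064 (plus strand), are shown for it. The capitals mark an E-box, CACGTG, first base at -344, and a nuclear receptor hexamer, AGGTCA on the other strand, which overlaps it from -340.
Smc3 summit: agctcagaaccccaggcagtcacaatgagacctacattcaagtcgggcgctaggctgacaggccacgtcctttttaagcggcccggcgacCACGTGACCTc

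Nipbl and Pds5b are shown for the stretches that several libraries called at nearly the same position. The Nipbl stretch of 77 bp lies upstream of the gene at chr15:8444793-8444869 (minus strand) and was shared by 5 peaks. The Pds5b stretch of 101 bp lies in an intron at chr5:150679077-150679177 (plus strand) and was shared by 4 peaks.
Nipbl: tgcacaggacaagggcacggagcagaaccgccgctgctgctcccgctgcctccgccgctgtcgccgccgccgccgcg
Pds5b: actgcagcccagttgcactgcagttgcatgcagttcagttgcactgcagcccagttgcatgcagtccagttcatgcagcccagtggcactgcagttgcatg

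FGFR1 was found at 3 of the 10 promoters in ESCs (Stag1, Pds5a and Pds5b), at 8 in NC replicate 1 (all but Smc1a and Stag2) and at all 10 in NC replicate 2, a mean of 9 ± 1.41 (SD, n = 2) in NCs. A promoter-window peak was present at 19.6%, 55.9% and 51.5% of all protein-coding genes in these 3 libraries. RXR was found at 7 promoters in ESCs (all but Ctcf, Smc1a and Stag2) and at 4 in NCs (Rad21, Stag2, Nipbl and Pds5a), against 46.4% and 26.1% of all genes. Nur77 was found at 6 in ESCs (Ctcf, Smc3, Stag1, Wapl, Pds5a and Pds5b) and at 5 in NCs (Rad21, Stag1, Nipbl, Wapl and Pds5a), against 29.7% and 30.9%. H3.3 in NCs was found at 3 (Stag1, Nipbl and Wapl), against 17.9%.

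On the full lists, the share of the 10 genes was above that of all genes in each of the 8 libraries, by a ratio of 1.43 to 2.02. With 10 genes the exact 95% binomial (Clopper-Pearson) interval of each share was wide, for example 6.67% to 65.2% for 3 genes and 69.2% to 100% for 10 genes, and it lay above the share of all genes only in FGFR1 NC replicate 2. These intervals treat the genes as independent draws from 1 library and cover counting error only, so they are not a test of the set. The windows of the 10 genes were also longer, a median of 21308 bp against 8823 bp, because they had a median of 6.5 annotated transcripts against 3. With equal windows of 1000 bp on either side of the representative start, an alternative added after seeing the data, the counts were 3, 8 and 10 for FGFR1, 7 and 4 for RXR, 6 and 4 for Nur77 and 2 for H3.3. The corresponding shares of all genes were 15.1%, 45.5%, 46.6%, 38.2%, 20.4%, 22.1%, 21.6% and 13.4%, and the interval of Nur77 in ESCs, from 26.2%, then lay above the share of all genes too.

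**Figure D1:**
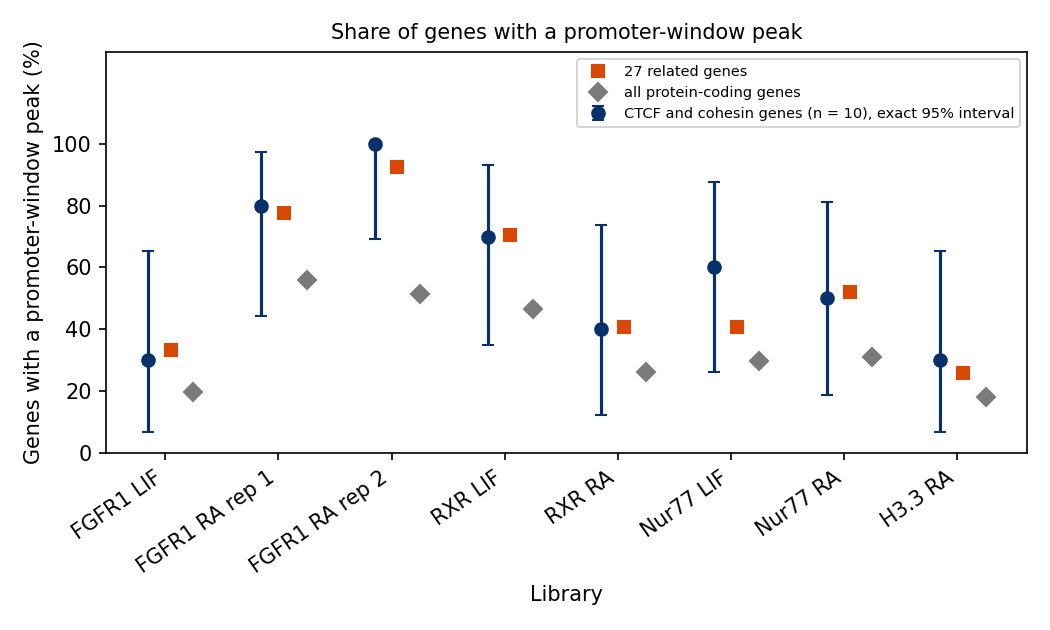
Percent of genes with a promoter-window peak (vertical axis) in each of the 8 libraries (horizontal axis) for the 10 CTCF and cohesin genes with exact 95% binomial intervals, for 27 related genes and for all 21938 protein-coding genes. The 10 genes lay above all protein-coding genes in every library, and the interval excluded the share of all genes only for FGFR1 RA replicate 2, where all 10 had a peak.

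Between ESCs and NCs, 5 of the 10 genes (Ctcf, Smc3, Rad21, Nipbl and Wapl) had an FGFR1 peak in both NC libraries and none in ESCs, a pattern shown by 26.0% of all genes. RXR was listed in ESCs and not in NCs at 4 (Smc3, Stag1, Wapl and Pds5b), against 24.5% of all genes, and in NCs and not in ESCs at Stag2 alone, against 4.31%. Nur77 was listed in ESCs and not in NCs at 3 (Ctcf, Smc3 and Pds5b), against 12.3%, and in NCs and not in ESCs at 2 (Rad21 and Nipbl), against 13.5%. A peak missing from a list fell under the calling limit of the authors and is not shown to be absent. The counts moved with the length of the lists. When each library was cut to its 10634 strongest peaks, FGFR1 was found at 3 genes in ESCs, 2 in NC replicate 1 and 9 in NC replicate 2, against 18.0%, 20.6% and 44.6% of all genes. RXR then stood at 1 gene in ESCs and 2 in NCs, against 17.1% and 15.1% of all genes, and Nur77 at 2 and 0, against 13.0% and 11.3%. The counts of RXR and of FGFR1 replicate 1 had turned by 1 gene each, and the shares of all genes kept their directions for FGFR1 and RXR. For Nur77 the share of all genes turned, from 29.7% in ESCs and 30.9% in NCs on the full lists.

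The strength of a peak is given by the MACS2 value −log10 p and by its fold over local background, both as deposited. Across the 80 pairs of a gene and a library, 46 had a promoter-window peak, and the strongest peak ranked above the 50th percentile of the protein-coding genes with a peak in that library in 16. The median percentile was taken over those of the 10 genes with a peak in the library. It was 22.7 in FGFR1 ESCs (3 genes) and 42.1 and 38.6 in the 2 FGFR1 NC libraries (8 and 10 genes). For RXR it was 52.3 in ESCs (7 genes) and 26.9 in NCs (4 genes). For Nur77 it was 36.2 in ESCs (6 genes) and 8.04 in NCs (5 genes), and for H3.3 it was 49.6 (3 genes). On the full lists these promoters were thus listed more often than those of all genes. In 7 of 8 libraries the median rank of those listed was below the middle of the protein-coding genes with a peak. With peaks of a −log10 p of at least 10, their share was below that of all genes for FGFR1 in ESCs (10% against 11.8%). It was also below for RXR (10% against 13.0%) and Nur77 in NCs (10% against 18.0%), and above in the rest. With the 10634 strongest peaks it was below for FGFR1 NC replicate 1 (20% against 20.6%) and RXR in ESCs (10% against 17.1%). The same held for Nur77 in NCs (0% against 11.3%), and it was above in the rest.

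**Figure D2:**
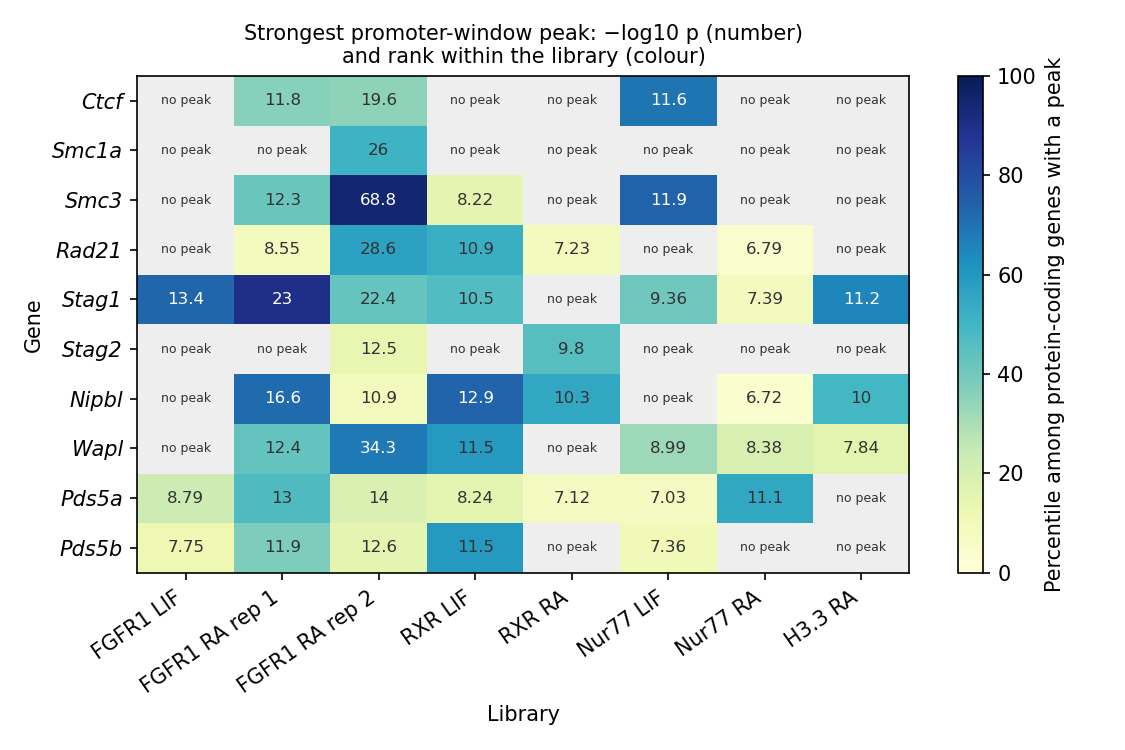
Strongest promoter-window peak of each gene (rows) in each library (columns), with its −log10 p as the printed number and its percentile among the protein-coding genes with a peak in that library as colour. Smc3 in FGFR1 RA replicate 2 (68.8) and Stag1 in FGFR1 RA replicate 1 (23) had the darkest FGFR1 cells, and Smc1a had a peak in 1 library.

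Ctcf, the gene of the insulator protein, had promoter peaks in 3 libraries. The strongest FGFR1 peak in NC replicate 1 reached a −log10 p of 11.8 from 13 fragments at its summit, 7.29 times the local background. In NC replicate 2 these were 19.6, 29 fragments and 7.6 times, and for Nur77 in ESCs 11.6, 12 fragments and 7.34 times. The gene was thus not listed for FGFR1 or RXR in ESCs, and not for RXR, Nur77 or H3.3 in NCs. Replicate 1 held 4 separate peaks here, with summits at -570, -255, -48 and +858, and the single wide peak of replicate 2 had its summit at -355. The peak at +858 lay between the starts of 2 genes of the other strand, the neuropeptide gene Agrp at +814 and the lincRNA Gm5914 at +906, so it cannot be given to Ctcf alone. The YY1 word printed above lay inside the FGFR1 NC replicate 1 peak at -48 and inside no other peak of the gene.

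Among the ring subunits, Smc3 had the strongest peak of the set. FGFR1 NC replicate 2 gave a −log10 p of 68.8 from 70 fragments, 17.5 times the local background, at the 94.7th percentile of its library, with its summit at -384. In NC replicate 1 the value was 12.3 at the 41.5th percentile, with the summit at +94 and 11 fragments. The replicates therefore both listed the gene and differed in the height and position of the summit, though the peaks overlapped. RXR in ESCs gave 8.22 and Nur77 in ESCs 11.9, with summits downstream of the start, and neither was listed for Smc3 in NCs.

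Rad21, the kleisin that closes the ring, was listed for FGFR1 in both NC libraries, with −log10 p of 8.55 (7 fragments, summit at -66) and 28.6 (32 fragments, summit at -148). RXR gave 10.9 in ESCs and 7.23 in NCs, and Nur77 gave 6.79 in NCs. The summits of FGFR1 and of the nuclear receptors fell on separate sides of the start. Both FGFR1 summits were upstream, and the RXR and Nur77 summits lay between +432 and +683. The FGFR1 peak of NC replicate 2 itself crossed the start. A further annotated start of Rad21 lay at +237.

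Smc1a, the X-linked partner of Smc3 in the ring, had a peak in 1 library only, FGFR1 NC replicate 2, with a −log10 p of 26 from 31 fragments, 10.3 times the local background. Its summit lay at -163, just beyond the start of Ribc1, which is at -133 on the other strand, so the peak belongs to the window of either gene.

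The accessory subunits differed in how often they were listed. Stag1 had a promoter-window peak in 7 libraries, a number reached by 9.8% of all protein-coding genes. FGFR1 gave a −log10 p of 13.4 in ESCs and of 23 and 22.4 in the NC replicates, from 13, 21 and 34 fragments. RXR in ESCs gave 10.5, Nur77 gave 9.36 in ESCs and 7.39 in NCs, and H3.3 gave 11.2. Peaks of 6 of these libraries joined in 1 site around the start, chr9:100642940-100643691, with summits between -113 and +143. The H3.3 peak and the strongest RXR peak were instead far inside the gene, with summits at +310162 and +310164, in the upstream window of an internal start at +312321. Neither counted with a window of 1000 bp. The CTCF word printed above lay inside the FGFR1 peaks of ESCs and of both NC replicates and inside none of the RXR or Nur77 peaks at this start. Within 50 bp of a summit, the CTCF word was found at 0.176% of all peaks of FGFR1 in ESCs and at 0.533% of those in NC replicate 2, the 2 libraries in which the Stag1 summit was that close to it. In NC replicate 1, where the Stag1 summit was farther from the word, it was found at 1.68% of all peaks.

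Stag2, the X-linked alternative to Stag1, had peaks in 2 libraries. FGFR1 NC replicate 2 gave a −log10 p of 12.5 from 17 fragments, with its summit at -200. RXR in NCs gave 9.8 from 8 fragments, with its summit at +495. Another annotated gene, Gm37564, starts at +769 on the other strand, so the RXR peak cannot be given to Stag2 alone. The FGFR1 and RXR sites did not touch, and no promoter-window peak was listed for Stag2 in ESCs.

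Nipbl, whose product loads cohesin, had peaks in 6 libraries and none for FGFR1 or Nur77 in ESCs. FGFR1 gave a −log10 p of 16.6 and 10.9 in the NC replicates, RXR 12.9 in ESCs and 10.3 in NCs, Nur77 6.72 in NCs and H3.3 10. The RXR value of ESCs was that of a separate peak at -1040, and its peak at the shared site had 8.5. In 5 of the 6 libraries a peak fell on the same upstream site, chr15:8444607-8444940, with summits at -365, -420, -369, -390 and -418. The summits thus lay within 55 bp of each other across FGFR1, RXR and H3.3. The shared stretch printed above had a GC content of 76.6% and held the letters CCGC 9 times. In NC replicate 1, which had the higher FGFR1 value here, the rank was the 71.6th percentile, and in replicate 2 it was a percentile of 9.3, the reverse of the order at Smc3.

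Wapl, the release factor, had peaks in 6 libraries and none for FGFR1 in ESCs or RXR in NCs. The −log10 p was 12.4 and 34.3 for FGFR1 in the NC replicates, 11.5 for RXR in ESCs, 8.99 and 8.38 for Nur77 in ESCs and NCs, and 7.84 for H3.3. All 10 peaks joined in a site of chr14:34673462-34674106, between -433 and +134. A long non-coding RNA, 5830448L01Rik, starts at -165 on the other strand, inside that site. In FGFR1 NC replicate 1, RXR and Nur77 in ESCs the peaks came in pairs, with one beyond the start of the non-coding RNA, inside that gene, and one downstream of the Wapl start, and the wide peak of FGFR1 replicate 2 spanned the space between them.

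Pds5a and Pds5b, which encode the paired regulators of the ring, were 2 of the 3 genes with FGFR1 in ESCs. Pds5a had peaks in 7 libraries, with a −log10 p of 8.79 for FGFR1 in ESCs, 13 and 14 in the NC replicates, 8.24 and 7.12 for RXR in ESCs and NCs, and 7.03 and 11.1 for Nur77. The Nur77 NC peak was inside the gene, with its summit at +82948, in the upstream window of an internal start at +86395, and it was lost with a window of 1000 bp. Peaks of 5 libraries joined at the main start, chr5:65698094-65698355, and the FGFR1 NC replicate 2 summit stood apart from them at -398.

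Pds5b had peaks in 5 libraries, with 7.75 for FGFR1 in ESCs, 11.9 and 12.6 in the NC replicates, 11.5 for RXR in ESCs and 7.36 for Nur77 in ESCs. The 11.9 was inside the gene, with its summit at +77827. The nearest start, at +74083, lay too far upstream to include it, so it counted through the upstream window of a later internal start. Gm43807 starts at +78354 on the same strand, so this peak cannot be given to Pds5b alone. The peak at the main start in the same library had 9.17. At the main start the peaks formed an upstream site, with summits between -65 and -10, and a downstream site, with summits between +248 and +334. FGFR1 in ESCs and in NC replicate 1 used the downstream site, FGFR1 NC replicate 2 and Nur77 in ESCs the upstream one, and RXR in ESCs had a peak in each.

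**Figure D3:**
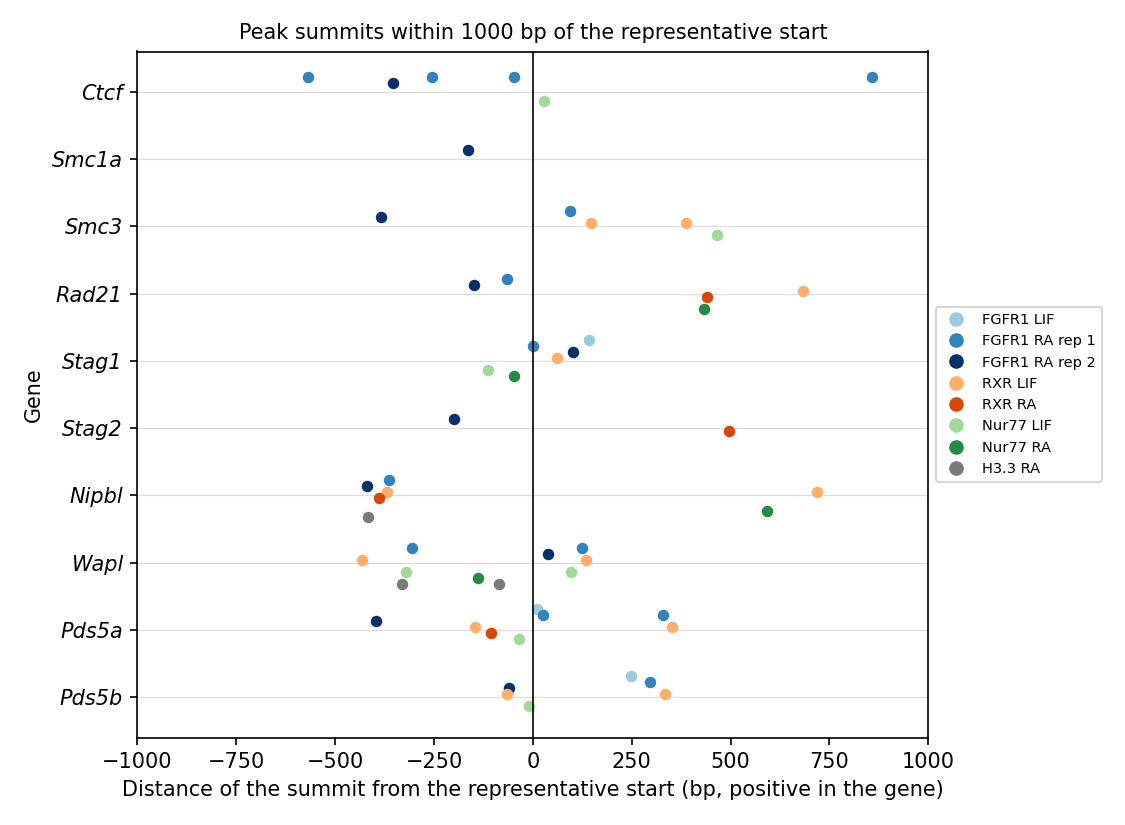
Distance of each peak summit from the representative start (horizontal axis, bp, positive in the gene) for the 10 genes (rows), coloured by library, within 1000 bp. Nipbl summits of 5 libraries lie within 55 bp of each other upstream of the start, and FGFR1 RA replicate 2 summits lie upstream at 8 of 10 genes.

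In all, the 10 genes had 63 promoter-window peaks in 26 separate sites, of which 14 were called in at least 2 libraries and 12 in 1. Of the peaks, 56 had their summit within 1000 bp of the representative start and 7 lay farther away. FGFR1 NC replicate 2 had 8 of its 10 summits upstream of the start, at a median of -182, and replicate 1 had 6 of 13 upstream, at a median of 1. The sides taken by summits over all genes of these libraries are not given here. Among the 8 genes listed in both FGFR1 NC replicates, the peaks shared at least 1 bp at 6 and lay apart at Pds5a and Pds5b. FGFR1 peaks of ESCs and NC replicate 1 touched at all 3 of the genes listed in both, and those of ESCs and replicate 2 at Stag1 alone. RXR peaks of ESCs and NCs touched at 3 of 3 genes (Rad21, Nipbl and Pds5a), and Nur77 peaks at 1 of 3 (Stag1). How often peaks touched over all genes is not given here, so these counts are not shown to be particular to the 10 genes.

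The 2 X-linked genes, Smc1a and Stag2, were listed in 1 and 2 libraries, and the 8 autosomal genes in 3 to 7. The same held across the genome: among 948 X-linked protein-coding genes 2.64% to 30.8% had a promoter-window peak, against 18.6% to 57.7% of the 20990 genes of the other chromosomes. The other genes exceeded the X-linked ones by a ratio of 3.35 to 7.05 in 7 libraries. In FGFR1 NC replicate 2, the library that listed both Smc1a and Stag2, the ratio was 1.7. E14Tg2a is a male line, and the part of X dosage in these counts was not tested.

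**Figure D4:**
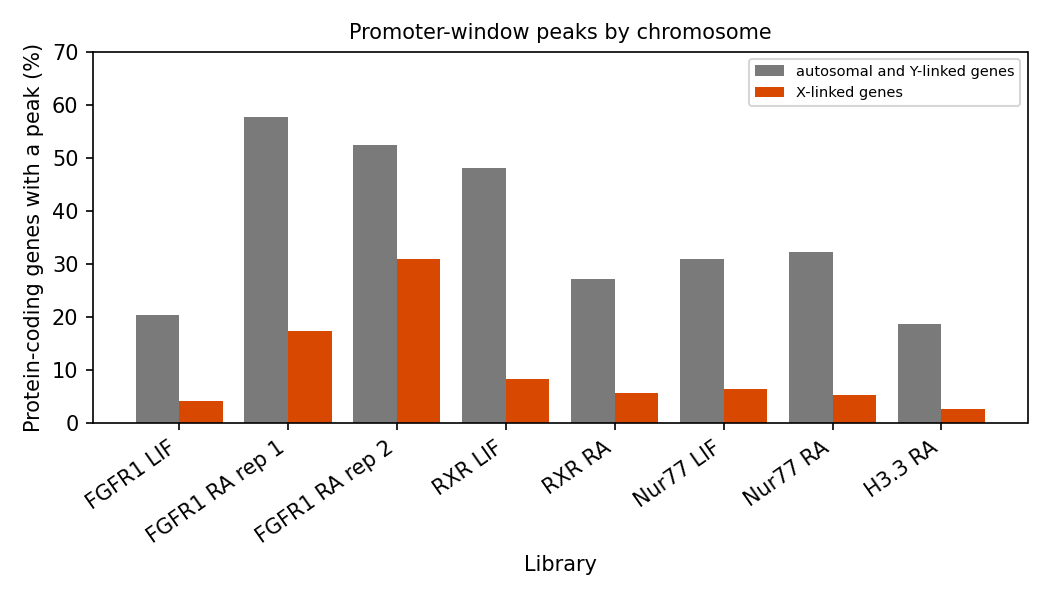
Percent of protein-coding genes with a promoter-window peak (vertical axis) for 948 X-linked genes and for 20990 genes of the other chromosomes in each of the 8 libraries. X-linked genes were lower in every library, least so in FGFR1 RA replicate 2, with 30.8% against 52.4%.

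The bodies of the 10 genes, 928 kb outside promoter windows, held few peaks: 5 in FGFR1 NC replicate 1, 5 for Nur77 in ESCs, 2 for Nur77 in NCs, 2 for RXR in ESCs and 0 in the other 4 libraries. FGFR1 in NCs had a mean of 2.5 ± 3.54 peaks (SD, n = 2). Per 100 kb of gene body this was 0 to 0.539 against 0.166 to 1.76 in all protein-coding genes, and it was lower in each of the 8 libraries. The exact 95% Poisson interval lay below the density of all genes in FGFR1 NC replicate 1 (0.175 to 1.26 against 1.76), RXR in ESCs (0.0261 to 0.779 against 1.02), RXR in NCs (0 to 0.398 against 0.516) and Nur77 in NCs (0.0261 to 0.779 against 1.06). These intervals also cover counting error only and are not a test of the set. Stag1 alone held 321138 bp of the body length, and the genes were not matched for X linkage. For a count of 0 the Poisson interval reaches 0.398 peaks per 100 kb and the simpler limit of 3 counts 0.323. The densities of all genes for FGFR1 in ESCs (0.388) and H3.3 (0.381) lay between these limits. In FGFR1 NC replicate 2, where all genes had 0.166, a lower density was not detectable by either. With starts of protein-coding transcripts only, the interval lay below in the same libraries and also in FGFR1 in ESCs, with an upper limit of 0.349 against 0.396. RXR in ESCs then had 4 peaks and an upper limit of 0.968 against 1.06. Without peaks on alternating runs the interval lay below only in FGFR1 NC replicate 1 and RXR in ESCs, with peaks of a −log10 p of at least 10 only in FGFR1 NC replicate 1, and at equal list length in 0 of 8 libraries.

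At least 1 gene-body peak was present at 4 of the 10 genes in FGFR1 NC replicate 1 (Smc3, Stag1, Nipbl and Pds5b), 4 for Nur77 in ESCs, 2 for RXR in ESCs and 2 for Nur77 in NCs. Among all genes the shares were 31.1%, 20.6%, 22.9% and 23.0%. In the libraries with none, the shares of all genes were 11.2% (FGFR1 in ESCs), 5.28% (FGFR1 NC replicate 2), 14.2% (RXR in NCs) and 11.4% (H3.3). The 14 peaks fell in 9 sites, and 5 of them lay on alternating runs of at least 20 bp. Only the Pds5b intron site, with summits between +5366 and +5394, was called in more than 2 libraries: the −log10 p was 12.9 for FGFR1 in NC replicate 1, 11.8 for RXR in ESCs, and 5.17 and 14.3 for Nur77 in ESCs and NCs. Its printed sequence is built of close repeats, with TGCA 12 times and CAGT 9 times in 101 bp, and the part of the repeats in these peaks was not tested.

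**Figure D5:**
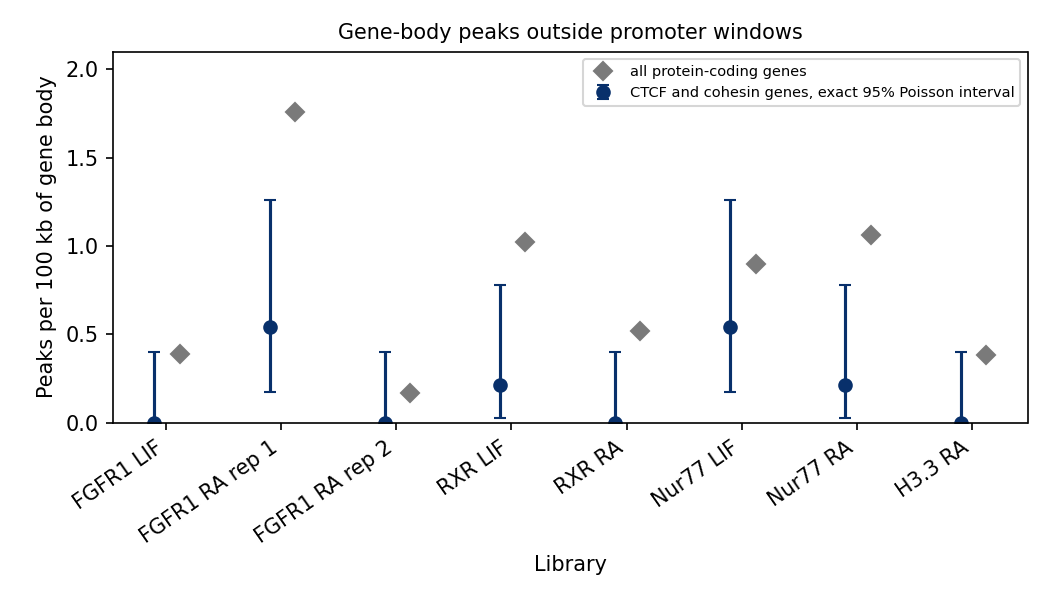
Gene-body peaks per 100 kb outside promoter windows (vertical axis) in each library for the 10 CTCF and cohesin genes, with exact 95% Poisson intervals, and for all protein-coding genes. The 10 genes lay below all protein-coding genes in every library, and 4 libraries had no peak in them.

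The start regions themselves, from 250 bp before to the first 50 bp of the representative transcript, were rich in GC and CpG. Their median GC content was 66.2% against 56% over all protein-coding genes, and the ratio of observed to expected CpG was 1.03 against 0.558. Stag2 had the lowest GC content, 50.3%, and Nipbl the lowest CpG ratio, 0.651. The part of base composition in the peak counts was not tested. The SP1 word GGGCGG on either strand was present at 9 of 10 starts, all but Stag2, and at 45.4% of all genes. The YY1 word was present at 3, against 2.76% of all genes, and the ETS word CCGGAAGT at Nipbl, against 5.01%.

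No start region held the words CRE (TGACGTCA, 2.49% of all genes), NRF1 (CGCATGCG, 2.66%), E-box (CACGTG, 7.78%), nuclear receptor hexamer (AGGTCA, 14.4%), ZFP143 (ACTACAATT, 0.542%) or CTCF (0.552%). The words were searched on both strands, and a missing word says only that these letters are not in this window. Among promoter-window summits of the 10 genes, the hexamer was found at 1 of 15 for RXR in ESCs, the one at -433 of Wapl. It was found at 0 of 4 for RXR in NCs and at 0 of 7 and 0 of 5 for Nur77 in ESCs and NCs. Across all peaks of these libraries, 4.61%, 3.49%, 4.68% and 4.55% of the 101 bp windows held it. For FGFR1 it was found at 0 of 3 in ESCs, 0 of 15 in NC replicate 1 and 1 of 10 in NC replicate 2, at Smc3. The shares of all peaks in these libraries were 2.91%, 5.14% and 3.69%.

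The 27 related genes were listed about as often. They comprised other cohesin regulators, germline paralogs, condensin and SMC5/6 genes, and other architectural DNA-binding factors. A promoter-window peak was present at 9, 21 and 25 of them for FGFR1 in ESCs and the NC replicates, at 19 and 11 for RXR in ESCs and NCs, at 11 and 14 for Nur77, and at 7 for H3.3. These are 33.3%, 77.8%, 92.6%, 70.4%, 40.7%, 40.7%, 51.9% and 25.9%, so the shares of the CTCF and cohesin genes were not shown to be particular to them.

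Listed in all 8 libraries were Esco1, an acetyltransferase of SMC3, and Smc5. Sgo1, the protector of centromeric cohesin, and the condensin genes Ncaph and Ncapd3 were listed in 7, and Stag3, Ncapg, Smc6, Yy1 and Ldb1 in 6. Hdac8, the X-linked deacetylase of SMC3, was listed in none. H3.3, present at 17.9% of all genes, was found at 2 of the 8 cohesin regulators, 0 of the 5 germline paralogs, 4 of the 10 condensin and SMC5/6 genes and 1 of the 4 architectural factors.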

How the data were processed

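ChIP-seq peak lists of 8 libraries were analysed. The authors aligned reads to mm10 with Bowtie 1.0, keeping reads with 1 reported alignment, and called peaks with MACS2 at p of 1e-05; their stated peak-calling command names no control library. The deposited lists give a score (10 times −log10 p), a fold over local background (a ratio), −log10 p, −log10 q and the summit offset. Groups were read from titles. Starts came from GENCODE M21 and sequence from GRCm38.p6. The representative start is that of the principal coding transcript. Fragments at each summit and the background were solved from fold and −log10 p (pseudocount 1, tolerance 0.002); all peaks were solved. Depth per library is not given in the files, and it limits which weak peaks were called. Scripts were tested on simulated data and run in Python 3.11.15, scipy 1.17.1 and pysam 0.24.0. Alternatives were other limits on p, q and fold, equal list lengths, overlaps and windows. Related genes were named if listed in at least 6 libraries or in none; all 10 main genes were named. Genes and lists were chosen with earlier results of these data known.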

Additional observations from a re-analysis of the deposited data

Results flagged for a closer look

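The number of CTCF and cohesin genes with a promoter-window peak moved in opposite directions between ESCs and NCs for different factors. It rose by 5 and 7 genes for FGFR1 in NC replicates 1 and 2, fell by 3 for RXR and fell by 1 for Nur77. Over all protein-coding genes the share was 19.6% in ESCs and 55.9% and 51.5% in NCs for FGFR1, 46.4% and 26.1% for RXR, and 29.7% and 30.9% for Nur77, so FGFR1 and RXR moved the same way there. With 1 library in most groups the difference was not tested. The lists of FGFR1 held 11378 peaks in ESCs and 46137 and 14082 in NCs, those of RXR 30586 and 15224, and those of Nur77 22651 and 25995. With the 10634 strongest peaks of each library, FGFR1 replicate 1 was at 2 genes against 3 in ESCs and RXR at 2 in NCs against 1 in ESCs, turns of 1 gene each, and FGFR1 replicate 2 was at 9. For FGFR1 and RXR the shares of all genes at that length kept their directions. They were 18.0% and 20.6% for FGFR1 in ESCs and NC replicate 1, and 17.1% and 15.1% for RXR. The share for Nur77 turned, with 13.0% in ESCs and 11.3% in NCs. The part of list length was not tested.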

How the results depend on the processing

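No paired analysis was possible because 6 of the 7 groups had 1 library and the replicate numbers link no samples. With peaks of a −log10 p of at least 10, promoter counts were 1 for FGFR1 in ESCs (11.8% of all genes) and 2 for Nur77 in ESCs (15.3%). In NCs they were 1 each for RXR (13.0%), Nur77 (18.0%) and H3.3 (8.94%). Nur77 in ESCs then had 3 gene-body peaks. With the 10634 strongest peaks of each library, promoter counts were 2 for FGFR1 in NC replicate 1 (mean of the replicates 5.5), 1 and 2 for RXR in ESCs and NCs, and 2 and 0 for Nur77; gene-body peaks were 0 for FGFR1 NC replicate 1 and the mean, 0 for RXR in ESCs and 2 for Nur77 in ESCs. Without peaks on alternating runs, gene-body peaks were 1 for RXR in ESCs and 3 and 1 for Nur77 in ESCs and NCs. With starts of protein-coding transcripts only, they were 4 for RXR in ESCs and 1 for H3.3. Leaving out each FGFR1 NC replicate in turn gave 0 to 5 gene-body peaks and 8 to 10 promoters. Counts stayed within 1.5 times under a −log10 q of 2, a fold of 5, an overlap of 1 bp, the summit rule and windows of 1000 bp. The unknown depth and the peak limit decide which weak sites are seen.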
